A study of Mus musculus with 2 samples.

Results

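Replication-dependent histone genes code for the bulk of the histones that package new DNA in S phase. Most have no introns, and their mRNAs end in a conserved stem-loop instead of a poly(A) tail. SLBP binds the stem-loop, and the pre-mRNA is cut after it with the help of the U7 particle. They sit in dense clusters that gather at the histone locus body, where NPAT and its partners drive transcription, and subtype factors such as OCT1 on H2B promoters and HINFP on H4 promoters add to this. Erythroid progenitors divide quickly, and at the CFU-E stage (colony-forming unit erythroid) the cells depend on erythropoietin and are committed to the red cell lineage.

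The members were all protein-coding genes of GENCODE M21 whose symbols start with Hist1h, Hist2h, Hist3h or Hist4h and which lie on chromosomes 13, 3, 11 and 6. They are 67 of 21911 protein-coding gene symbols, with 6 H1, 18 H2A, 18 H2B, 12 H3 and 13 H4 genes. By position they fall into 2 groups on chromosome 13, of 23 genes (chr13:21715763-22043676, here group A) and 31 genes (chr13:23531050-23934851, group B), 10 genes on chromosome 3 (chr3:96219865-96270132), 2 on chromosome 11 and 1 on chromosome 6. All coordinates are on mm10. The rule uses symbols and positions and no accessibility value.

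The data are ATAC-seq, in which Tn5 transposase inserts adapters into DNA that nucleosomes leave open. CFU-E primary cells came from adult male C57BL/6J mice of 5 to 6 weeks, with no further genotype or treatment given, as 2 libraries of 50000 cells each, numbered as biological replicates and carrying 1 donor identifier. All samples belong to 1 group, so the design holds no comparison of conditions, and a fold below is the authors' enrichment of a peak over its local background. Read depth is unknown from these peak lists. The series list thresholded on IDR (the irreproducible discovery rate between peak sets) holds 24394 merged regions, the list of replicate 1 holds 18685 and that of replicate 2 holds 17854. All 8 erythroid marker genes (such as Gata1, Klf1 and Epor; 7 in the list of each replicate) were called at their promoter, against 0 of 4 markers each of T and NK cells and of B cells and 0 of 5 of granulocytes and macrophages. In the authors' deposited table of ranked records that holds every record of the conservative list, taken here as the comparison of the libraries, the −log10 p values of the compared peak sets differed by an SD of 0.257 on the log2 scale around a median ratio of 0.13, over the 19726 records with a pooled −log10 p of at least 40. The deposited table behind the series list, taken as pseudoreplicates (splits of the pooled reads), gave an SD of 0.388 over as many records with the same minimum. If so, the spread between the libraries was smaller than that between splits of the pooled reads, for a reason not visible from these lists. The libraries are therefore counted as 1 sample, no SD is given, and the list of each replicate is printed beside that of the series.

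The promoters that carry the results are shown first. Between the H2A and H2B genes of a divergent pair lies 1 short promoter, read here on the plus strand. Capitals mark the TATA box (TATAAA), the CCAAT box (CCAAT), the octamer bound by OCT factors (ATTTGCAT), the core of the H4 site II bound by HINFP (GGTCCG) and their complements. The first pair has the strongest pair promoter on chromosome 13 (chr13:23683949-23684198) and the second the only pair on chromosome 3 (chr3:96220881-96221118).
Hist1h2ac-Hist1h2bc: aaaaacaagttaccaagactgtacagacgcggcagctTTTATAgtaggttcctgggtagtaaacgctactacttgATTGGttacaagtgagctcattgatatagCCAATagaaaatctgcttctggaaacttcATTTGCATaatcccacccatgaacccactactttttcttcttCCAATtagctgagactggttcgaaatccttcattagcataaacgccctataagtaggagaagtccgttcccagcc
Hist2h2ac-Hist2h2be: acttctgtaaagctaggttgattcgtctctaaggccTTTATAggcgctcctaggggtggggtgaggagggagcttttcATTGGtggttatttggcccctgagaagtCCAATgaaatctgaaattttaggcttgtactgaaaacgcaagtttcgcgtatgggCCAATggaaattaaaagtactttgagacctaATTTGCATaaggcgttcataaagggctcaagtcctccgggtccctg
The next sequences are the 250 bases before the start of the H4 gene with the strongest region (chr13:21734814-21735063, plus strand), of the strongest H3 gene (chr13:23562370-23562619, minus strand) and of an H1 gene (chr13:23738558-23738807, plus strand), each on the strand of the gene.
Hist1h4j: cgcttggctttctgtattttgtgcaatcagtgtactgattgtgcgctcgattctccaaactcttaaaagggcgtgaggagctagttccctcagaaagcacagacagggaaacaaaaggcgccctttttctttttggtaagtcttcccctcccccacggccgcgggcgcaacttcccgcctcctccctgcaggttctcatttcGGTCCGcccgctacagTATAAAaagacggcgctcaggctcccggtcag
Hist1h3e: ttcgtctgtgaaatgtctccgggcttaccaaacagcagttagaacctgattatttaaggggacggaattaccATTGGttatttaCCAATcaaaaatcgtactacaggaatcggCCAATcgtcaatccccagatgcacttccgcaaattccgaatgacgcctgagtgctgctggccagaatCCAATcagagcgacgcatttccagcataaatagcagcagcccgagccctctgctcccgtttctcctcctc
Hist1h1c: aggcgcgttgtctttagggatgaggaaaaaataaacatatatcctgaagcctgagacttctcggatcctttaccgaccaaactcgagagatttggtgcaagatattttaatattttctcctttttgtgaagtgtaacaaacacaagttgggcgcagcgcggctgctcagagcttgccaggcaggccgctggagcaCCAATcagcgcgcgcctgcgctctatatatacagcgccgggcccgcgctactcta
The H2A-H2B promoters carry CCAAT boxes on both strands, a TATA box facing the H2A gene and an octamer that reads towards the H2B gene. The H4 promoter has the site II core a few bases before its TATA box, and the H3 promoter has a row of CCAAT boxes.

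Nearly every histone gene had an accessible promoter in CFU-E. A region lay within 1 kb of a start for 63 of the 67 members, which is 94.0% (95% exact binomial interval 85.4 to 98.3%, counting error only), against 45.8% of all protein-coding genes. The list of replicate 1 gave 61 members against 43.5% of all genes, and the list of replicate 2 gave 61 members against 42.6%. All 12 H3 and all 13 H4 genes had a region, as did 17 of 18 H2A, 17 of 18 H2B and 4 of 6 H1 genes. By position, all 23 genes of group A, 27 of 31 of group B, all 10 on chromosome 3, both on chromosome 11 and the 1 on chromosome 6 had one. Members of a cluster share regions and are not independent of each other, so these shares are descriptions and no test was made.

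The 4 members without a region all lie in group B, and 3 of them are testis histones. Hist1h2ba and Hist1h2aa code for the H2B and H2A forms of male germ cells and form a divergent pair at the far end of the cluster. No list held a region for either, and the nearest region of the series list lay 160912 bp and 161218 bp away. Hist1h1t codes for the testis linker histone H1t. It had no region in the thresholded lists, and the less strict overlap list, which calls 52.1% of all genes and 64 members, held a region of fold 2.61 at chr13:23696257-23696434. The fourth gene, Hist1h1d, codes for a somatic H1. Its GENCODE start (23553262) lies 1770 bp before its RefSeq start (23555032), and a region of fold 4.91 covered the RefSeq start (chr13:23554875-23556571), with 4.68 in replicate 1 and 4.79 in replicate 2. With RefSeq starts, 64 members had a promoter region. RefSeq and GENCODE starts of 66 members lay within 100 bp of each other.

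A further 3 members had a region within 1 kb of a start in some lists only. Hist1h3i had a region of fold 2.22 in the series list, the lowest of all members, and none in the list of either replicate. Hist1h3h had fold 3.45 in the series list and 3.37 in replicate 1, and was not called in replicate 2. Hist1h4i had fold 3.51 in the series list and 3.98 in replicate 2, and was not called in replicate 1. In the series list these are the 3 lowest folds among the members. The lists are thresholded on IDR and not on fold, so a low fold does not place a call near the threshold. Outside the members, calls also differed at a high fold, as for Casp8ap2, with 15.3 in the series list and no call in replicate 2. The reason for the differing calls was not tested.

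Although almost all histone promoters were called, their enrichment was low. The strongest region at a member had a median fold of 5.74 (2.22 to 9.99 over 63 members), against a median of 10.7 (interquartile range 8.37 to 12.98) over 10037 protein-coding genes with a region. No member reached the median of all genes in the series list or in the list of either replicate. In the upper 50% of merged regions by fold, 8 members (11.9%) kept one, against 37.4% of the protein-coding genes of the annotation. The members' medians were 5.57 in replicate 1 and 5.94 in replicate 2, against 10.4 in both lists for all genes. The −log10 p values lay closer together, with a median of 109 for the members (16.2 to 154) against 128 for all genes, and 18 of 63 members were above that median. Regions at members were also narrower, with a median width of 461 bp, against 942 bp for all genes.

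**Figure D1:**
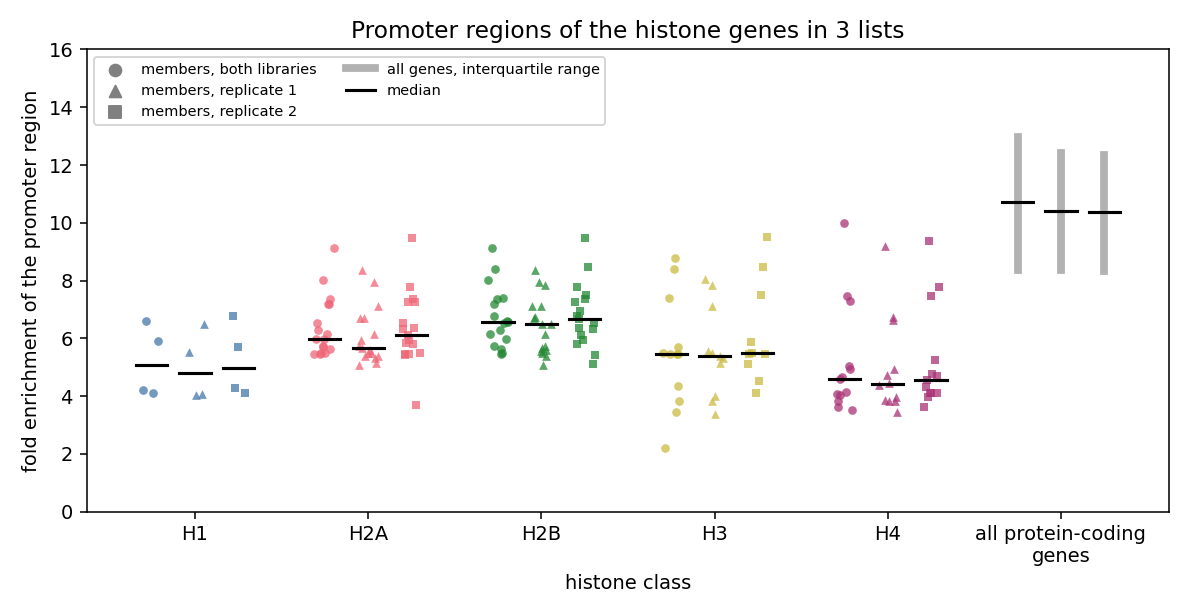
Fold enrichment (y axis, linear) of the strongest promoter region of each histone gene by class, in the list of both libraries (circles), replicate 1 (triangles) and replicate 2 (squares), with medians as black lines. At the right, grey bars span the interquartile range over all protein-coding genes with a region. Every member lies under the median of all genes, and the H2B genes have the highest class median (6.56) and the H4 genes the lowest (4.61).

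Among the classes, H2B genes had the highest median fold (6.56), followed by H2A (5.99), H3 (5.46), H1 (5.06) and H4 (4.61). The ranges of all 5 classes overlap, from 5.46 to 9.14 in H2B and from 3.51 to 9.99 in H4, so the order of the medians does not separate the classes. The class medians kept this order in replicate 1, at 6.49, 5.66, 5.40, 4.79 and 4.42, and in replicate 2, at 6.67, 6.13, 5.48, 4.98 and 4.57. The strongest region of a gene in these clusters can belong to a neighbour or lie past the gene's own stop codon. The latter holds for Hist1h4m (5.06), Hist1h4n (4.61) and Hist1h4h (4.03), so the H4 median of 4.61 is the value of such a region. Counting only records whose summit lay within 300 bp of the member's own start gave medians of 6.56 for H2B, 5.97 for H2A, 5.03 for H3, 4.56 for H1 and 4.10 for H4.

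The strongest member was Hist1h4j in group A, an H4 gene with fold 9.99 (9.21 in replicate 1 and 9.38 in replicate 2). It stands apart from its class, since the next H4 genes were Hist1h4c (7.46, with 6.74 and 7.48 in replicates 1 and 2) and Hist2h4 on chromosome 3 (7.31, with 6.63 and 7.79). The core nucleosome pair Hist1h2ac and Hist1h2bc shared a region of fold 9.14, with 8.36 in replicate 1 and 9.47 in replicate 2. Hist1h3e, the strongest H3 gene, had 8.78, with 8.05 and 9.49 in replicates 1 and 2. All 3 lists put these genes at the top of the members.

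Next came Hist1h2bh, an H2B gene whose region of fold 8.40 also lay within 1 kb of the H3 gene Hist1h3f, and the pair Hist1h2ah and Hist1h2bk at 8.02. On chromosome 3, Hist2h3b and Hist2h2bb shared a region of fold 7.41, ahead of Hist2h4. By strongest region, the linker histone genes were led by Hist1h1e at 6.59, in a region it shares with the H2B gene Hist1h2be, and by Hist1h1c at 5.91. The strongest summit of Hist1h1e lies over 1 kb from its start. Records with a summit within 300 bp of an H1 start reached at most 5.23. The chromosome 11 genes Hist3h2ba and Hist3h2a had 6.56 and 5.99, and the lone chromosome 6 gene Hist4h4 had 4.92. The divergent pair Hist1h2bl and Hist1h2ai held the median of the members at 5.74, with Hist1h3g just under it at 5.71 and Hist1h1c just over it. Hist1h2af also had 5.71, from the region of Hist1h3g, with 5.40 in replicate 1 and 3.68 in replicate 2, and the region at its own start had 3.795. In the 60 members called in both replicates, the log2 ratio of replicate 1 over replicate 2 had a median of −0.09 and a range of −0.24 to 0.55, the upper end being Hist1h2af.

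Histone genes shared their accessible regions to a large degree. The windows of the members held 79 distinct regions, of which 40 served 1 member, 35 served 2 and 4 served 3. There were 13 divergent pairs of members with starts within 1 kb, and 12 of them joined an H2A to an H2B gene across a gap of 176 to 306 bp (median 259.5 bp). A single region covered the promoter of 11 of these 12 pairs, with a median fold of 6.28. The testis pair Hist1h2ba and Hist1h2aa was the exception. The remaining divergent pair, Hist1h2bh with Hist1h3f, joined an H2B and an H3 gene across 660 bp.

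The summits lay in front of the genes. The strongest summit within 300 bp of the start had a median position of −102 bp over the members, against −60 bp over all genes. It lay upstream in 59 of 63 members and in 78.9% of all genes with such a summit, so an upstream summit is usual. In the H2A and H2B classes the medians were −119 and −120 bp, which is close to the middle of the shared promoters printed above. In H3 and H4 they were −77 bp each, and in H1 −36.5 bp.

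Along the gene, coverage of the members in the series list dropped early and was higher again further on. At the start, 96.8% of members with a promoter region were covered, against 84.9% of all genes with one. At 200 bp into the gene the shares were 22.2% of members and 75.6% of all genes. At 550 bp the members' share was 54.0%, against 45.8% of all genes. At 1 kb upstream, 38.1% of members were covered, against 6.41% of all genes.

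**Figure D2:**
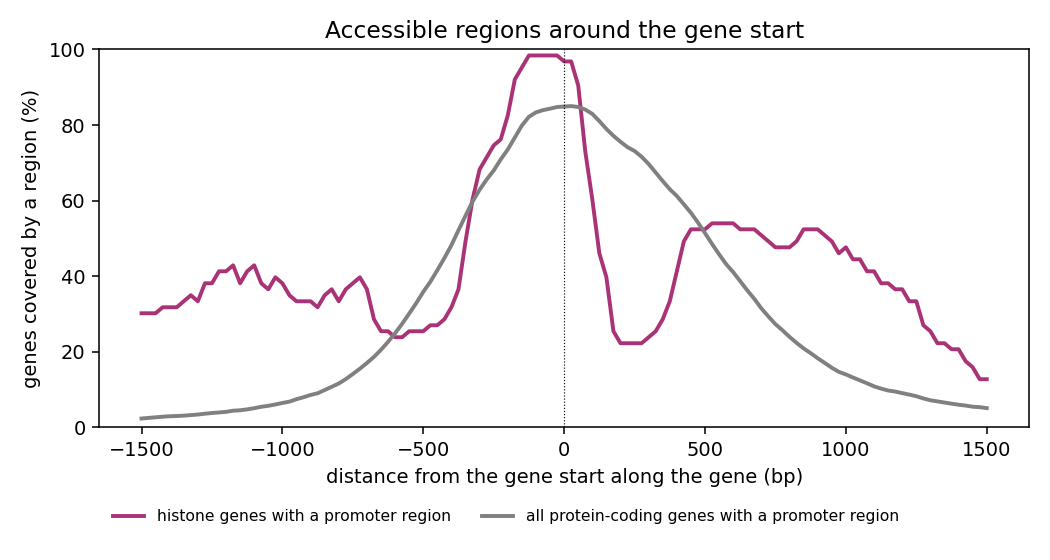
Share of genes covered by a region of the series list (y axis, percent) by distance from the gene start along the gene (x axis, bp) for histone genes with a promoter region (purple) and all protein-coding genes with one (grey). The members drop to 22.2% at 200 bp, where all genes are at 75.6%, and return to 54.0% at 550 bp.

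The dip coincided with the coding sequence. The following counts leave out the 3 testis genes and keep 64 members. The 200 bases before the start codon were touched by a region in all 64. The central part of the coding sequence, the middle one of 3 equal parts, was free of any region in 48 of the 59 core histone genes (H2A, H2B, H3 and H4), while the stretch from 100 to 400 bases after the stop codon was touched in 34 of them (22 in replicate 1 and 19 in replicate 2). In 25 core genes both flanks had a region and the central part none. The lists of replicates 1 and 2 gave 15 and 13 such genes. For comparison, 118 other protein-coding genes with a single coding exon of the same length range (312 to 672 bases), a promoter region and a start codon within 1 kb of the start had this arrangement in 3 cases (2.54%), and 61 of them had the central part fully covered. H1 genes differed from core genes here, with the central part fully covered in 5 of 5 in the series list and in 4 of 5 in the list of each replicate.

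**Figure D3:**
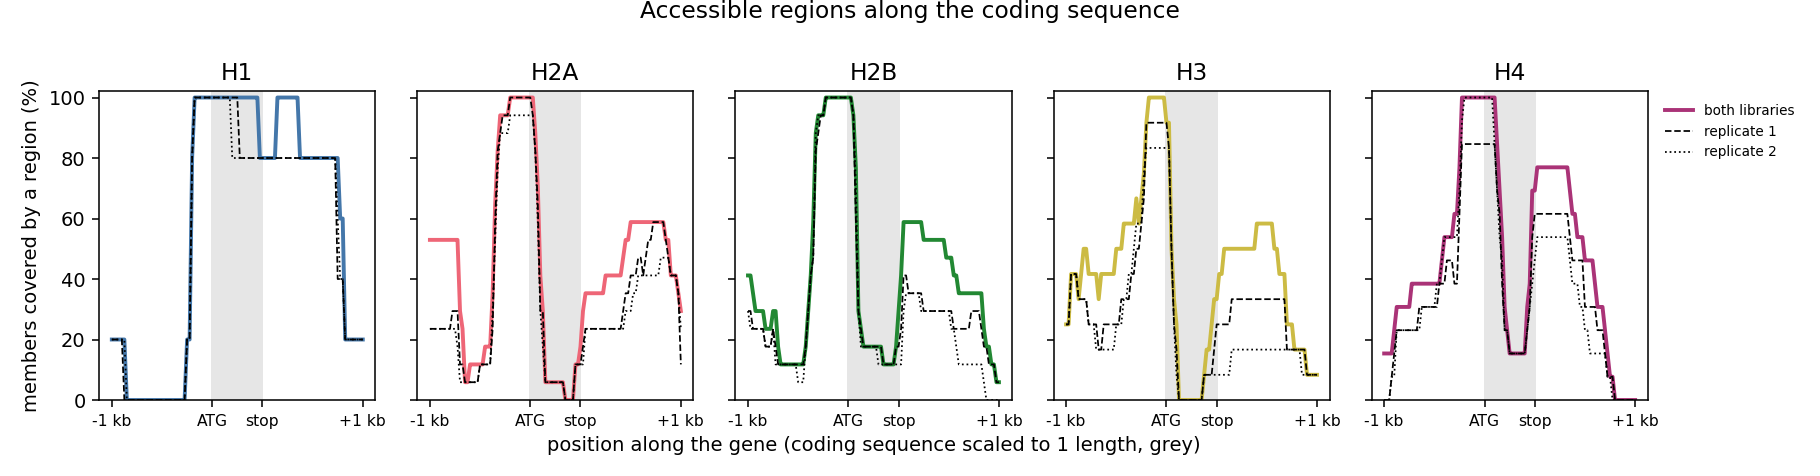
Share of members covered by a region (y axis, percent) along the coding sequence scaled to 1 length (grey band) and 1 kb to each side, by class, in the series list (colour), replicate 1 (dashed) and replicate 2 (dotted); testis genes are left out. Coverage falls over the coding sequence in H2A, H2B, H3 and H4 genes and stays at 80% or more in H1 genes in every list.

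Sequence uniqueness moved with this dip and is given beside it. In the 48 core genes with a bare central part, a median of 0% of its 32-base words occurred once in the genome (0 to 51.1%). In the 11 core genes with a region there, the median was 45.2% (0 to 100%). Of the 6 core genes with more than 50% unique words there, Hist1h2ak alone was bare, while the 5 H1 genes had 41.8 to 99.5% unique words and were all covered. Flanks of core genes were far more often unique, with a mean of 83.0% before the start codon and 80.8% after the stop codon, against 25.4% in the coding sequence. How reads with several matches were handled is not given in the sources used here, and the part of sequence uniqueness in the dip was not tested.

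**Figure D4:**
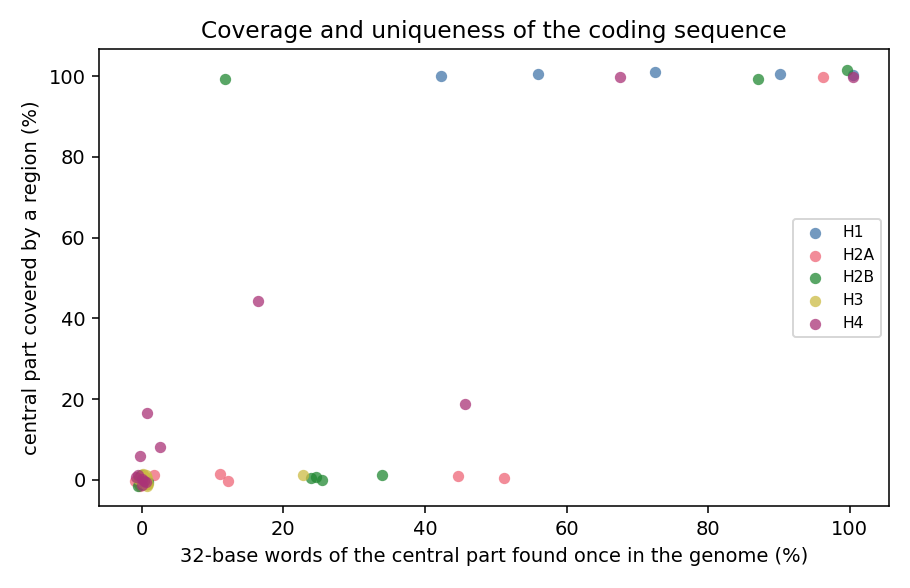
Share of the central part of the coding sequence covered by a region of the series list (y axis, percent) against the share of its 32-base words found once in the genome (x axis, percent), 1 point per member coloured by class, with a small random shift. The 48 bare core genes lie at 0 to 51.1% on the x axis and the 5 H1 genes at 41.8 to 99.5%, all covered.

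By position, the central part was fully covered in 6 of the 13 core genes on chromosomes 3, 11 and 6 and in 0 of the 46 core genes on chromosome 13. These 6 are Hist2h2bb, Hist2h2be, Hist2h4, Hist3h2a, Hist3h2ba and Hist4h4, and 5 of them were fully covered in the list of each replicate. All of these except Hist3h2ba are also the covered core genes with more than 50% unique words, so position and uniqueness moved together, and the part of either was not tested. Hist3h2ba was covered although its central part was mostly repeated, as the point at the upper left of the uniqueness plot shows.

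Of the 79 regions, 24 touched the stretch after a stop codon and no stretch before a start codon of a member. They had a median fold of 3.48 (1.90 to 5.40), against 5.46 (2.22 to 9.99) in the 39 regions that lay before a start codon only. A further 12 regions touched both kinds of stretch, at a median of 5.48, and 4 touched neither. The strongest of the 24 lay past the H4 gene Hist1h4c (chr13:23697432-23698189, fold 5.40), and the next past Hist1h4j (chr13:21735349-21736022, fold 5.19). The region past Hist1h4j spans the stem-loop of its mRNA (chr13:21735437-21735452).

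The stem-loop itself was searched on the strand of the gene in the 200 bases after the stop codon. A pattern with the loop TTTC or TCTC matched in 52 of 67 members, 24 to 59 bases after the stop codon (median 32). A looser loop, chosen after seeing these matches, raised this to 65 members and left out Hist1h2an and Hist2h2be. The commonest forms are printed with the paired stem in capitals, as found in 41, 9 and 8 members.
Form 1: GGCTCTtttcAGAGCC
Form 2: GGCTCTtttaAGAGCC
Form 3: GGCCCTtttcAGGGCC
The stem bases of forms 1 and 2 are the same, and form 3 changes the stem on both sides so that it still pairs. The sequence shows that nearly all members have this end, and it was not used to choose them.

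Promoter motifs differed by class. In windows of 250 bases before to 50 after the start, both strands searched, the CCAAT box was in 83.6% of members against 39.0% of all 21911 protein-coding promoters, and in 18 of 18 H2A, 18 of 18 H2B and 11 of 12 H3 genes but 4 of 13 H4 genes. The TATA box was in 55.2% of members against 12.6% of all promoters, at any place in the window. Of the 10 H2B genes with a match, 4 had one on their own strand, and many H2A and H2B genes share pair promoters. Matches on the gene's own strand had a median position of −29.5 bp in H1 and −161 bp in H3 genes. The octamer ATTTGCAT was in 22.4% of members against 1.57%, in 8 H2B and 7 H2A genes, many of which share pair promoters, and in 0 genes of the other classes. The site II core GGTCCG was in 12 of 13 H4 genes, at a median of −49 bp, against 9.58% of all promoters, and otherwise in 1 H2B and 2 H3 genes. The H1 box, searched as the full string AAACACAAA, was in 4.48% of members against 0.593%, which is 1 H1, 1 H2A and 1 H2B gene. The H1 gene with a match is the testis gene Hist1h1t. The somatic genes Hist1h1b, Hist1h1c and Hist1h1e carry AAACACAA followed by another base, which this search did not count. A shorter string was not searched, so these counts do not show that somatic H1 promoters lack the element.

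**Figure D5:**
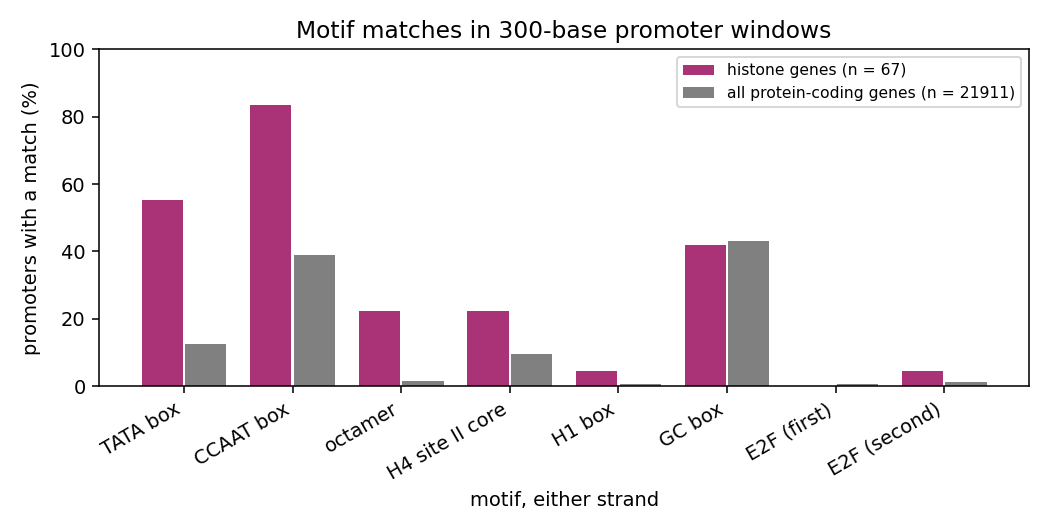
Share of 300-base promoter windows with at least 1 match on either strand (y axis, percent, from 0) for 8 motifs, in the 67 histone genes (purple) and in all 21911 protein-coding genes (grey). The members stand above all genes for the TATA box, the CCAAT box, the octamer and the H4 site II core, and near them for the GC box at 41.8% against 43.0%.

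The GC box GGGCGG was in 41.8% of members against 43.0% of all promoters, a near equal share that differed by class, with 10 of 13 H4 and 4 of 6 H1 genes but 7 of 18 H2A, 5 of 18 H2B and 2 of 12 H3 genes. All 5 H2B matches lay after the start, and in the RefSeq windows 1 of 16 H2B genes had a match. Of the E2F sites, TTTGGCGC was in 0% of members against 0.694% of all promoters. The other, TTTCCCGC, was in 4.48% against 1.34%, which is 3 members, all of them H4 genes. No motif of the set contains another, but in Hist1h4j and Hist1h4k a GC box match overlaps the site II core. Among the 12 H2A-H2B pair promoters, all 12 had a CCAAT box, 7 a TATA box and 5 an octamer. The 4 accessible pairs with an octamer had folds of 6.17 to 9.14 and the 7 without one had 5.48 to 7.37, so these ranges overlap. The testis pair without a region has the octamer, the TATA box and the CCAAT box as well, so none of these letters sets it apart. Members' windows had a median GC content of 45.3%, against 59.7% in all promoters with a region, and their ratio of observed to expected CpG had a median of 0.750, against 0.769.

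Some members are close copies, and their values are uncertain. In 10 members, forming 5 pairs of copies (Hist1h2ao with Hist1h2ap, Hist1h2bq with Hist1h2br, Hist1h4m with Hist1h4n, Hist2h2aa1 with Hist2h2aa2 and Hist2h3c1 with Hist2h3c2), fewer than 50% of the 32-base words before the start codon were unique. Over their promoter windows, Hist1h4m and Hist1h4n are 99.7% identical, Hist1h2bq and Hist1h2br 99.3%, Hist2h3c1 and Hist2h3c2 94.7%, Hist1h2ao and Hist1h2ap 90.0%, and Hist2h2aa1 and Hist2h2aa2 80.3%. Each window is set from the annotated start. In the Hist2h3c, Hist1h2ao-Hist1h2ap and Hist2h2aa copies these starts lie at different places in the copied sequence. Their identities are lowered by this shift and understate how alike the copies are. All 10 had a region, with a median fold of 5.50 (4.61 to 7.37). These folds, and those of the groups below, are of the strongest region within 1 kb. In Hist1h4m, Hist1h4n, Hist2h2aa1 and Hist2h2aa2 it is not the region before the start codon, where the words were counted. The 22 members with any repeated word there, these 10 included, had a median of 5.50 (3.45 to 9.99). The 42 members whose words before the start codon were all unique had a median of 5.99 (2.22 to 9.14) over the 41 with a region. The part of repeated sequence in the members' fold was not tested.

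Within the cluster spans, 25 regions lay outside every member's promoter window. The list of replicate 2 alone held 15 such regions and that of replicate 1 alone 18. In group A, 6 of the 13 such regions overlapped a tRNA gene, out of 31 tRNA genes in that span, and the strongest held a tRNA-Met gene (chr13:21974010-21975385, fold 12.2). Another 7 lay inside the gene models of members, 1 in Hist1h1d and 6 in the long model of Hist1h2be, led by chr13:23609053-23609695 with fold 15.9. The coding sequence of Hist1h2be (chr13:23585576-23585956) lies far from its annotated start (23621124), which its fold and motif counts above use. Of the 6 regions, chr13:23585898-23586201 (fold 5.54) lay before its start codon and chr13:23584982-23585562 (fold 3.31) after its stop codon. The remaining 12 overlapped no tRNA gene and had no annotated start within 1 kb other than starts of tRNA genes. They were led by chr13:23772613-23773244 with fold 14.2 and chr3:96254698-96255037 with fold 10.3. Some lay close to a tRNA gene, such as chr13:22028680-22029053 (fold 9.04) before a tRNA-Ile gene (chr13:22029223-22029296). Each of the 4 leading regions (folds 12.2, 15.9, 14.2 and 10.3) was stronger than every histone promoter, the strongest of which had 9.99. The spans hold 10 other protein-coding genes, and 1 of them had a promoter region, Trim17, whose start falls in the region of Hist3h2a. The iron regulator Hfe, the transporters Slc17a1 to Slc17a4, Trim38, Zfp184, Prss16 and Pom121l2 had none.

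Genes that act on these histones were also accessible, at the enrichment usual for other genes. The counts below stand beside 45.8% of all protein-coding genes with a promoter region (43.5% in replicate 1 and 42.6% in replicate 2). Of factors for histone transcription and mRNA 3' end processing, 19 of 19 had a promoter region (19 in replicate 1 and 18 in replicate 2, where Casp8ap2, a histone locus body protein, was not called), with a median fold of 11.01. The strongest were Cstf2, a cleavage factor subunit, at 17.1 and Lsm10, a U7 particle protein, at 16.8. Npat had 11.6, Hinfp 16.6, Pou2f1 (OCT1) 7.92 and Slbp 8.86. All 18 histone chaperone genes had a region in every list, with a median of 10.2, led by the H3.3 loader subunit Atrx at 16.2 and by Npm1 at 14.8. Replacement histone variants, which are made outside S phase as well, had a region in 8 of 11 cases and a median of 8.59, led by the H2A.Z gene H2afv at 14.8 and the centromeric H3 gene Cenpa at 10.95. H2afy2, H1f0 and H1fx had none, and H2afy had fold 8.57 in the series list and was not called in the list of either replicate.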

How the data were processed

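ATAC-seq peak lists of 2 CFU-E libraries were analysed, as deposited by the authors. Per the deposited file listing, peak calling on mm10 was done per replicate and after pooling. Not given in the sources used here: aligner and caller with their versions, and how Tn5 offsets and multiply matching reads were treated. The fold is the authors' ratio over the caller's local background, the −log10 p values are those the authors deposited, and the deposited score, capped by the authors, was used only to check the threshold. Values were compared within a list. Records that overlapped or touched were merged, with the highest fold kept. A promoter region lay within 1 kb of any GENCODE M21 start. Coding sequences, promoters and 32-base words were read from GRCm38, and RefSeq starts from its table for the same assembly, where all 67 members matched. Merging and calls were checked on simulated intervals. Counts are set beside those of all protein-coding genes, with no test.

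The members, the 3 related lists (replacement variants, transcription and 3' processing, chaperones) and the marker lists were chosen with earlier results of these data known. Genes were named by rule: the strongest 3 per cluster and 2 per class, those without a region or with calls that differ between lists, those around the median fold, the testis genes and the genes of small loci. Regions after stop codons, word uniqueness, the 118 single-exon genes and the copies were added after seeing the data. Alternatives were stricter and looser lists, other windows, single starts, summit position and either library left out. Python 3 tools used were pandas, numpy, scipy and biopython.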

Additional observations from a re-analysis of the deposited data

How the results depend on the processing

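The count of members with a promoter region was 61 when either library was left out, 62 in the conservative list, 64 in the overlap list, 63 to 65 with the other windows and starts, and 61 when the strongest summit had to lie in the window. In the upper 50% of merged regions by fold, the members with a region were 8 (3 in group A, 5 in group B, 0 on each of chromosomes 3, 11 and 6; 0 H1, 2 H2A, 3 H2B, 2 H3 and 1 H4). This setting keeps fewer regions by its construction and also gave 6 distinct regions, a median fold of 8.59, 9 other regions in the spans and 5 replacement variants. The overlap list gave 43 other regions in the spans, against 25, and the lists of single replicates 15 to 18. The distinct regions of the members were 59 to 64 and their median fold 5.57 to 5.94 in the lists of single replicates. With the summit in the window, 2 H1 genes had a region, against 4, since the strongest summits of Hist1h1b and Hist1h1e lie outside it. No motif share left its binomial interval in the other windows tried, of which the RefSeq windows were chosen after seeing the data. No paired analysis was possible because both libraries belong to 1 group. Depth, the handling of repeated sequence and any batch of a library cannot be read from these lists.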

Other observations

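A match to the CTCF consensus within 100 bp of the strongest summit, a search added after seeing the data, was found in 0 of the 79 regions in the members' windows, against 6.96% of all 24394 regions. The 24394 include regions away from promoters, and the share among promoter regions of other genes was not counted. Of the 25 regions elsewhere in the cluster spans, 1 had a match, inside the long Hist1h2be model (chr13:23598025-23598307, fold 3.94). The regions covered 6.88% of group A and 6.58% of group B on chromosome 13, and 19.6% of the cluster on chromosome 3.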
